A study of Mus musculus with 7 samples.

Results

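The genes described are 10 components of LIF and gp130 cytokine signalling in the mouse uterus: Lif, Il6, Il11, Osm, Il6st, Lifr, Osmr, Il11ra1, Stat3 and Socs3. They were listed by symbol for their part in LIF, IL-6, IL-11 and oncostatin M signalling at implantation, and all 10 were found among the 24964 genes of the deposited table. RNA of the whole uterus was sequenced from mice of 12 weeks, all recorded as in diestrus, the quiet phase of the cycle. The 3 control libraries have the genotype Pgrcre/+, in which 1 allele of the progesterone receptor gene carries Cre recombinase, with replicates numbered 1, 2 and 4. A further 4 libraries, numbered 1 to 4, are labelled Pgrcre/+Foxl2LsL/+ and called Foxl2LsL here, so every mouse of both groups carries the Cre allele. The labels do not spell out what LsL stands for. Pgr-driven Cre is known to act in epithelium, stroma and muscle of the uterus and in other organs that express Pgr, such as the ovary. The title of the study concerns overexpression of FOXL2, and the design compares these genotypes.

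LIF, IL-6, IL-11 and oncostatin M are secreted cytokines that share a signalling receptor chain, gp130, encoded by Il6st. Each ligand pairs gp130 with a further chain: Lifr for LIF, Osmr for oncostatin M, and Il11ra1 for IL-11. The receptor activates Janus kinases, which phosphorylate the transcription factor STAT3, and SOCS3 is a STAT3-induced inhibitor that binds gp130 and limits the signal. In the mouse uterus LIF is made by glands around the time of implantation under the control of estrogen, and loss of Lif or of IL-11 reception blocks implantation or decidualization.

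Values are FPKM, fragments scaled to gene length and to the fragments of the library, so levels of different genes can be compared. Means are given ± SD over libraries. Libraries had denominators of 47800000 to 67300000 fragments. Foxl2 itself was at 14.4 ± 4.32 FPKM (n = 3) in controls and 14.7 ± 1.86 FPKM (n = 4) in Foxl2LsL libraries (log2 fold change 0.06, limma adjusted p 0.818), so the table shows no rise under this symbol, and directions below refer to libraries as labelled. Whether reads of a transgene would be counted under Foxl2 is not given in the sources used here, which limits what this value can check. Control 4 stood apart from controls 1 and 2 on the second principal component (-31.9 against 25.2 and 8.53), and it also had the lowest epithelial sum. Several results are therefore also given without it, and others only within the closing ranges for single libraries left out. Nothing in the labels says whether libraries came from separate animals, so p-values measure the spread between these libraries. In bulk tissue, fewer cells of a type and less RNA per cell cannot be told apart.

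Of the 10 genes, 7 had a mean of at least 1 FPKM over the libraries and entered the comparison across 13334 genes. Lifr, Osmr and Stat3 were higher and Socs3 was lower in the Foxl2LsL libraries past an adjusted p of 0.05 (limma, Benjamini-Hochberg), which is 4 of 7. Over all tested genes 40.6% passed in either direction, 16.7% higher and 23.9% lower, so a count of 4 of 7 is not far from the background. The median log2 fold change of the 7 was 0.45, against -0.05 for all tested genes. Groups did not overlap for the same 4 genes of the 7, where 47.6% of all tested genes did not overlap. The remaining 3 genes, Il6, Il11 and Osm, lay below the filter. All log2 fold changes are on the log2(FPKM + 1) scale, which understates changes of low genes.

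**Figure D1:**
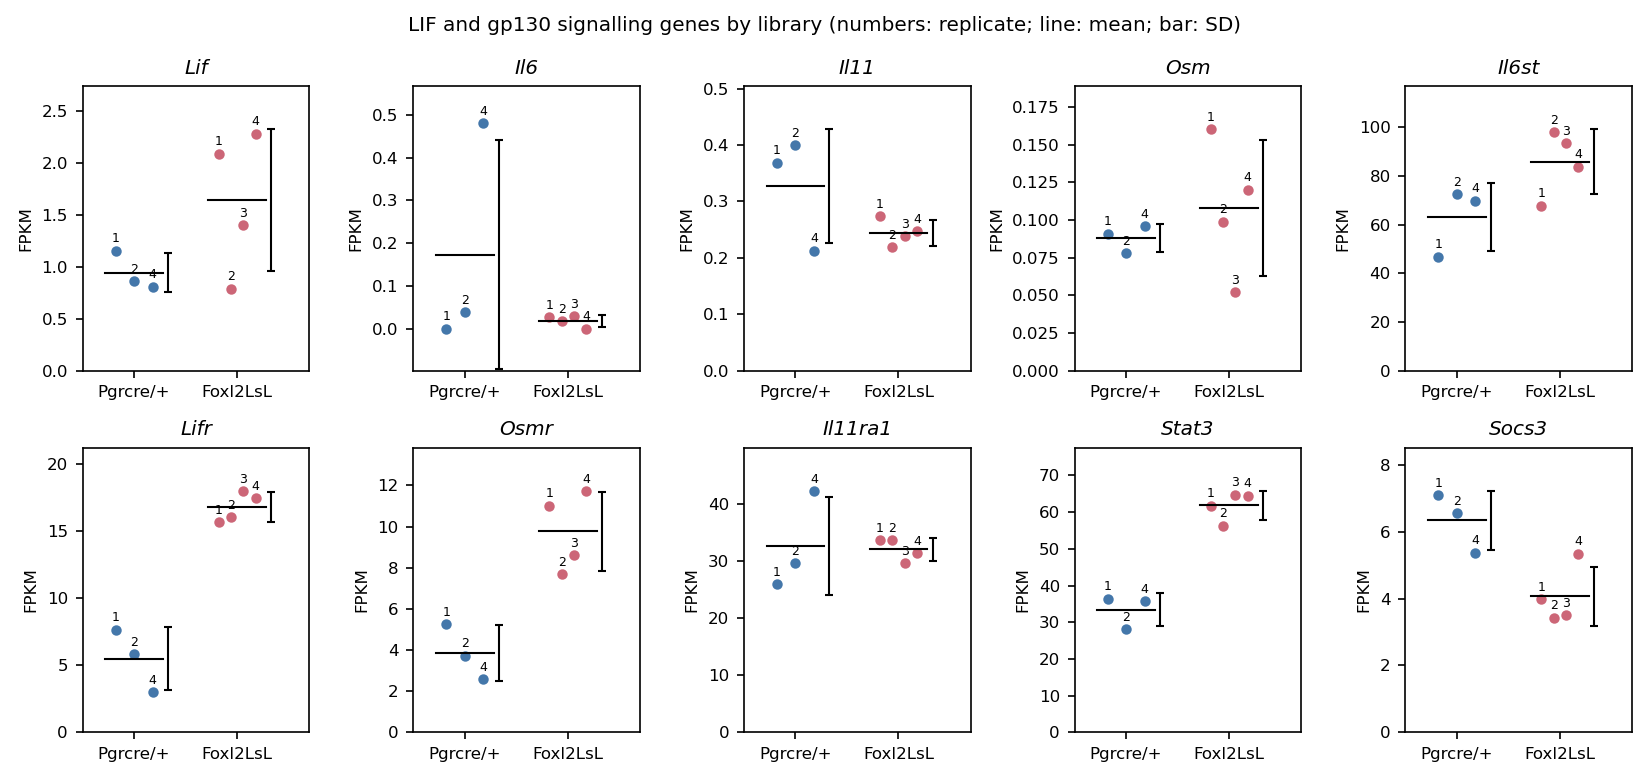
FPKM of the 10 genes in each library, with 3 controls (Pgrcre/+) on the left and 4 Foxl2LsL libraries on the right of each panel; numbers are replicate numbers, lines are means and bars are SD. Lifr, Osmr and Stat3 are higher in every Foxl2LsL library than in any control, Socs3 is lower with control 4 (5.38) and Foxl2LsL 4 (5.35) almost touching, and the other 6 genes overlap.

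Promoter windows are shown for the 4 genes that changed, because 3 of them rose together while Socs3, a textbook STAT3 target, moved the other way. Windows hold 250 bases before and 50 after an annotated start (RefSeq, GRCm38.p6) and were present for 9 of the 10 genes. They were searched on both strands for the STAT motif TTCNNNGAA, the forkhead motif GTAAACA and the estrogen response element (GGTCA, any 3 bases, TGACC). Capitals mark a match to any of these, and the motifs do not overlap each other here.
Lifr, chr15:7129322-7129621, plus strand: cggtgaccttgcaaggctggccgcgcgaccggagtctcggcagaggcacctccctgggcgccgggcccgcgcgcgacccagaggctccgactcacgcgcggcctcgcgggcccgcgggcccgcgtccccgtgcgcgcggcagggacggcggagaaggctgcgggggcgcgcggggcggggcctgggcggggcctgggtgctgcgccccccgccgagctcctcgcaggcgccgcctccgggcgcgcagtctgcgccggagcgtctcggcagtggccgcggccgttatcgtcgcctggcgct
Osmr, chr15:6874264-6874563, minus strand: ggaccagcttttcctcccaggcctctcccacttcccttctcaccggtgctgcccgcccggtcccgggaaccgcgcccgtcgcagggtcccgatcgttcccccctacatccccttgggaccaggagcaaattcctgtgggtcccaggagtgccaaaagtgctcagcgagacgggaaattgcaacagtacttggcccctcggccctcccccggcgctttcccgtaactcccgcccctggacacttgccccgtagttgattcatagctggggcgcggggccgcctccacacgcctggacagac
Stat3, chr11:100939491-100939790, minus strand: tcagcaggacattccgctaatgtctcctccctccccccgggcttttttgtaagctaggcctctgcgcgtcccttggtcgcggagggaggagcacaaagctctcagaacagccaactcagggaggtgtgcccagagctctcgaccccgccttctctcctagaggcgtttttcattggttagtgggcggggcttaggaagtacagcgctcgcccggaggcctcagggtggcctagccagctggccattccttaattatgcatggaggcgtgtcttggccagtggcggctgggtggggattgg
Socs3, chr11:117969317-117969616, minus strand: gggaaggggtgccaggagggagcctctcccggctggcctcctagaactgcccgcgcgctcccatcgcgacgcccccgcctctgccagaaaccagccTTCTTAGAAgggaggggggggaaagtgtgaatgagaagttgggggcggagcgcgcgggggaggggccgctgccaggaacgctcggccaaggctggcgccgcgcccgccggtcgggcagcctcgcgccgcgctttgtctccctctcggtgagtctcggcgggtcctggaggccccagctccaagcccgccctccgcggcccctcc

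The Socs3 window holds 1 STAT match, TTCTTAGAA, at bases 97 to 105 counted from its 5′ end. No window of the other 8 genes, including the second annotated starts of Lifr, Il11 and Il11ra1, holds a match to any of the 3 motifs. Both Lifr windows (from 7129322 and 7140292) lie inside the gene, which begins at 7090610. The windows of Osmr and Socs3 also lie inside the bounds of their genes, so the outermost starts of these genes were not searched. Among all 32851 windows of the same length, 8.30% hold the STAT motif, 3.65% the forkhead motif and 0.0700% the estrogen response element. A match is a description of letters and not evidence of binding. In the same annotation Il6st lies on chromosome 13 (112464070 to 112506860), Il6 on 5 (30013114 to 30019975), Il11 on 7 (4772373 to 4782907), Il11ra1 on 4 (41760443 to 41769473), and Stat3 and Socs3 on 11 (100886806 to 100939594 and 117966079 to 117970336).

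The ligands were the lowest of the 10 genes in this tissue. Lif was at 1.16, 0.864 and 0.811 FPKM in controls 1, 2 and 4, and at 2.09, 0.791, 1.40 and 2.28 FPKM in Foxl2LsL 1 to 4. Foxl2LsL 1 and 4 lay highest and Foxl2LsL 3 also lay above every control, but Foxl2LsL 2 was the lowest of all libraries, so the groups overlapped. Between 164 and 593 fragments lay on Lif in each library. The log2 fold change was 0.41 (95% interval -0.09 to 0.90; limma adjusted p 0.165), and it did not pass the threshold. Without Foxl2LsL 2 it was 0.58 with an adjusted p of 0.0290 (limma), so this library decides whether Lif is called.

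Gland markers were compared beside Lif, since glands are its known source. Foxa2, a transcription factor that uterine glands need, fell from 5.71 ± 1.03 FPKM (n = 3) to 1.36 ± 0.209 FPKM (n = 4), in libraries that did not overlap (limma adjusted p 0.000320). Cxcl15, a gland-secreted chemokine, fell from 27.8 ± 5.19 to 4.26 ± 0.813 FPKM (log2 fold change -2.45). Of the 9 gland markers listed, with earlier results of these data known, 5 were tested. Past the threshold 3 were lower and 0 higher, beside 23.9% lower and 16.7% higher among all tested genes. The other two, Sox17 and Wfdc3, named after their values were seen, did not pass (log2 fold change -0.08 and -1.20; limma adjusted p 0.712 and 0.134). The summed level of the list was 148 to 176 FPKM in controls and 80.0 to 103 FPKM in Foxl2LsL libraries. Prss28 and Prss29, proteases of implantation-stage glands, were below 1 FPKM on average. The part of gland content in the level of Lif was not tested.

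Genes listed for the estrogen response of the uterus were also compared. Padi1, a peptidylarginine deiminase gene induced by estrogen, was at 12.6, 15.9 and 5.60 FPKM in controls and at 136, 80.2, 102 and 142 FPKM in Foxl2LsL 1 to 4. Padi2, its relative, was at 125, 66.6, 83.3 and 116 FPKM there. Within the Foxl2LsL group both were highest in libraries 1 and 4 and lowest in library 2, as Lif was. On the same list Ltf, C3, Lcn2, Muc1 and Gpx2 shared this order, while Greb1, Ccnd1 and Ramp3 did not. Greb1 was at 10.4, 17.7, 12.8 and 11.3 FPKM and Ccnd1 at 17.3, 22.9, 24.7 and 20.1 FPKM in Foxl2LsL 1 to 4. Past the threshold, 6 of the 10 genes on the estrogen response list were higher and 2 lower, beside 16.7% higher and 23.9% lower among all tested genes. The list was chosen with earlier results of these data known, so this count is a description only. The 2 lower genes were Gpx2 and Ramp3 (log2 fold change -1.84 and -1.70, limma adjusted p 0.000536 and 0.00300). The summed level of the list was 263 to 679 FPKM in controls and 1136 to 2670 FPKM in Foxl2LsL libraries, with a median log2 fold change of 1.75. Ltf and C3 had the highest means of the list in Foxl2LsL libraries (794 and 684 FPKM). The part of this difference in the level of Lif was not tested.

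Likeness to Lif was measured as Pearson's r of log2(FPKM + 1) over the 7 libraries, against 13333 tested genes, as a description only. The 5 highest were Plekha2 (0.994), Syt8 (0.993), Fuca1 (0.993), G6pc3 (0.984) and Slc5a1 (0.984). Syt8, a synaptotagmin family gene, followed the order of Lif most visibly in size, with 13.4, 3.08, 7.61 and 16.5 FPKM in Foxl2LsL 1 to 4 against 3.94 to 5.38 FPKM in controls. Slc5a1, which encodes the intestinal-type sodium-glucose cotransporter, was at 4.32, 1.01, 2.20 and 3.78 FPKM in the same order. Plekha2 (10.2 ± 0.311 to 11.9 ± 1.58 FPKM, n = 3 and 4), Fuca1, a lysosomal fucosidase gene, and G6pc3, a glucose-6-phosphatase gene, moved over a narrower range. Like Lif, none of the 5 passed the threshold with all libraries (limma adjusted p 0.0917 to 0.212), and all 5 did without Foxl2LsL 2 (0.0114 to 0.0468). They were chosen for following Lif over these same libraries, so sharing its dependence on that library is built into the choice and supports nothing. Among the genes described here, r with Lif was 0.81 for Osmr, 0.67 for Stat3, 0.63 for Lifr and 0.02 for Il6st, with the difference between groups included in each value.

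**Figure D2:**
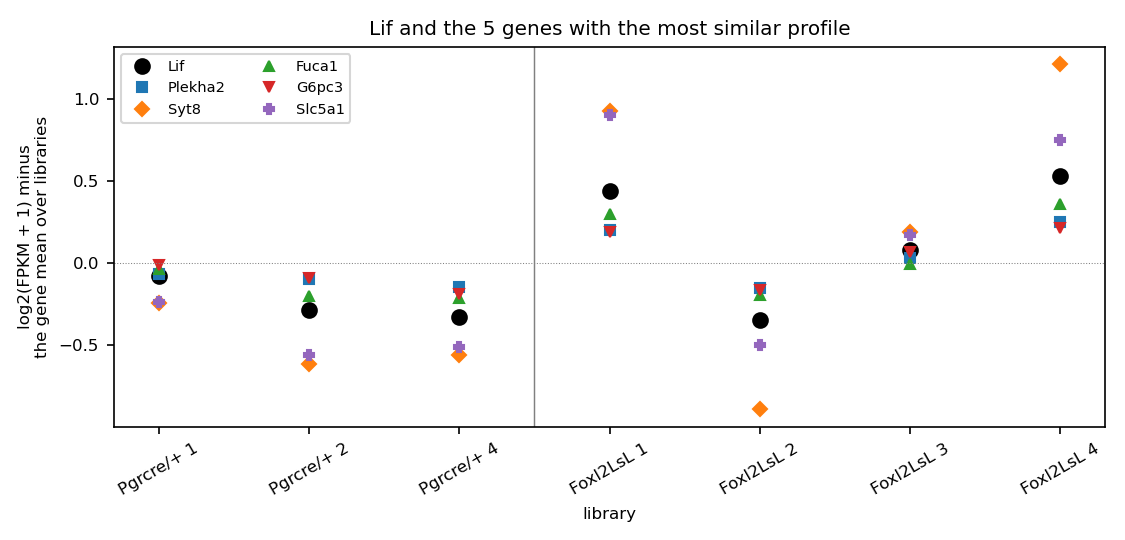
Level of Lif and of the 5 genes with the highest Pearson's r in each of the 7 libraries, as log2(FPKM + 1) minus the gene's mean over libraries; the vertical line separates the 3 controls from the 4 Foxl2LsL libraries. All 6 genes are high in Foxl2LsL 1 and 4, near their mean in Foxl2LsL 3, and low in Foxl2LsL 2.

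Il6, Il11 and Osm were near the floor of detection. Il6 had 0, 3 and 36 fragments in controls 1, 2 and 4 and 2, 1, 2 and 0 in Foxl2LsL 1 to 4, so only control 4 (0.481 FPKM) was above a floor of 3 fragments, which stands for 0.0391 to 0.0550 FPKM in the other 6 libraries. The difference of group means was -0.18 on the log2 scale (two-sided exact permutation p 0.457) and -0.001 without control 4. Il11 was at 0.369, 0.400 and 0.213 FPKM in controls and at 0.274, 0.219, 0.239 and 0.247 FPKM in Foxl2LsL libraries (21 to 54 fragments), with overlapping groups (exact permutation p 0.286). Osm, which encodes oncostatin M, a product of macrophages and neutrophils, was at 0.0910, 0.0780 and 0.0960 FPKM in controls and at 0.160, 0.0990, 0.0520 and 0.120 FPKM in Foxl2LsL libraries (6 to 20 fragments; exact permutation p 0.514). With 3 and 4 libraries the smallest exact p is 0.0571, so these tests could not pass 0.05 at any depth and leave the 3 ligands undecided.

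Leukocyte markers are given beside Osm because it is made by such cells. Itgam, an integrin chain of myeloid cells, was below 2 FPKM in every control (up to 1.99) and at 12.2, 2.93, 4.21 and 17.97 FPKM in Foxl2LsL 1 to 4. Csf1r, the macrophage growth factor receptor, rose from 8.47 ± 1.23 FPKM (n = 3) to 13.8 ± 1.95 FPKM (n = 4; log2 fold change 0.64, limma adjusted p 0.00691). In all, 2 of 7 tested leukocyte markers were higher and 0 lower, beside 16.7% higher among all tested genes. Their sums were 107 to 163 and 151 to 205 FPKM. Cd68, Adgre1, Nkg7, Lyz2 and Ptprc were not called (log2 fold change 0.82, 0.40, 0.15, 0.06 and -0.16, limma adjusted p 0.0757, 0.0630, 0.513, 0.815 and 0.536). The call of Itgam was lost without control 1, 2 or 4 or Foxl2LsL 1 or 4 (limma adjusted p 0.0672 to 0.0935), without the filter (0.0724) and in limma-voom (0.0676). Markers of neutrophils (S100a8, S100a9), T cells (Cd3e) and B cells (Cd79a) lay below 1 FPKM on average, and the part of leukocytes in the level of Osm was not tested.

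The shared receptor chain was the most abundant of the 10 genes. Il6st was at 46.8, 72.5 and 69.8 FPKM in controls and at 67.7, 97.8, 93.3 and 83.8 FPKM in Foxl2LsL 1 to 4, above 95.5% of tested genes by its mean. Foxl2LsL 1 fell between the controls, and the groups overlapped. The log2 fold change was 0.45 (95% interval 0.03 to 0.87; limma adjusted p 0.0841), and it was 0.25 with an adjusted p of 0.227 without control 1, and 0.56 with an adjusted p of 0.0469 without Foxl2LsL 1 (limma).

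Lifr, which pairs with gp130 to bind LIF, showed the largest change of the 7 tested genes. It was at 7.66, 5.84 and 3.01 FPKM in controls 1, 2 and 4 and at 15.7, 16.0, 17.98 and 17.5 FPKM in Foxl2LsL 1 to 4. Every Foxl2LsL library was more than double the highest control, and the Foxl2LsL libraries lay close together while the controls were spread. The means, 5.51 ± 2.34 in controls (n = 3) and 16.8 ± 1.119 FPKM in Foxl2LsL libraries (n = 4), had a ratio of 3.05. The log2 fold change was 1.52 (SE 0.23; limma adjusted p 0.00226), and it was 1.21 without control 4.

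Osmr, the oncostatin M receptor chain, was at 5.26, 3.73 and 2.58 FPKM in controls and at 11.02, 7.71, 8.61 and 11.7 FPKM in Foxl2LsL 1 to 4. The order of controls was the same as for Lifr, with control 4 lowest, and no Foxl2LsL library overlapped them. The log2 fold change was 1.17 (SE 0.21; limma adjusted p 0.00418), a ratio of mean levels of 2.53, and it was 0.97 without control 4. Il11ra1, the chain that binds IL-11, was at 26.0, 29.5 and 42.2 FPKM in controls and at 33.6, 33.6, 29.6 and 31.3 FPKM in Foxl2LsL libraries. Foxl2LsL libraries lay inside the range of the controls. Il11ra1 had a log2 fold change of 0.003 (95% interval -0.35 to 0.36; limma adjusted p 0.988), with a sign that changes with the scaling. Il11ra2, a near-identical copy of Il11ra1, is listed at 0 in all 7 libraries, and reads shared by both copies make the level of Il11ra1 uncertain. Its end also overlaps Ccl27a in RefSeq, and whether counting used strand is not given in the sources used here.

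Epithelial, stromal and muscle markers were compared beside these receptors, since whole tissue was sequenced. Among all tested genes 16.7% were higher and 23.9% lower past the threshold. Summed simple epithelium markers were 1309, 943 and 759 FPKM in controls 1, 2 and 4, the same order as Lifr and Osmr, and 1042 to 1419.5 FPKM in Foxl2LsL libraries. Krt18 and Krt7 rose (log2 fold change 0.80 and 0.95; limma adjusted p 0.00854 and 0.0327), which is 2 of 7 tested epithelial markers. Krt19, Krt8 and Epcam (0.53, 0.35 and 0.27) and Cdh1 and Cldn3 (-0.08 and -0.24) were not called (limma adjusted p 0.0966 to 0.769). Unlike the sum, Cldn3 was highest in control 4, at 126, 80.2 and 194 FPKM in controls 1, 2 and 4. The groups of Krt7 overlapped, and it was not called without control 2 or 4, Foxl2LsL 1, 3 or 4 (limma adjusted p 0.0540 to 0.0757), or the filter (0.0572). Stromal sums were 1159 to 2122 and 1693 to 1944 FPKM, with Dcn, a matrix proteoglycan, higher (log2 fold change 1.25), Pdgfrb lower (-0.71), and 1 of 7 tested markers higher and 2 lower in all. Smooth muscle sums were 827 to 1643 and 1468 to 1913 FPKM, with 2 of 6 higher, Myh11 (1.01) and Tagln (0.77). The part of tissue makeup in the receptor levels was not tested.

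Osmr and Lifr are neighbours on chromosome 15, with Osmr at 6813568 to 6874968 on the minus strand and Lifr at 7090610 to 7197489 on the plus strand (RefSeq, GRCm38.p6), 215641 bases apart. Rictor, the coding gene on the far side of Osmr, was at 4.73 ± 0.570 FPKM (n = 3) and 5.97 ± 0.515 FPKM (n = 4; log2 fold change 0.29, limma adjusted p 0.0497). Its call was lost without control 2 or 4 or any single Foxl2LsL library (limma adjusted p 0.0766 to 0.122) and after rescaling to a common sum (0.0887). Egflam, on the far side of Lifr, was at 12.7 ± 4.61 and 9.14 ± 2.44 FPKM (log2 fold change -0.41, limma adjusted p 0.258). The 2 receptor genes thus rose by more than either neighbour on the log2 scale, a difference that was not itself tested.

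Osm and Lif are likewise adjacent, on chromosome 11 (4236785 to 4241026 and 4257568 to 4272514). Castor1, listed under its older symbol Gatsl3 and next to Osm, was at 4.40 ± 0.929 FPKM (n = 3) and 6.74 ± 0.933 FPKM (n = 4; log2 fold change 0.53, limma adjusted p 0.0195). The call of Gatsl3 was lost without control 1 or 2 or Foxl2LsL 3 (limma adjusted p 0.0501 to 0.0683). Hormad2, next to Lif, lay below the filter at 0.0610 ± 0.0252 and 0.148 ± 0.0378 FPKM.

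The balance of receptor chains was compared as 3 ratios of FPKM within each library. The ratio of Lifr to Il6st was 0.163, 0.0806 and 0.0432 in controls and 0.231, 0.164, 0.193 and 0.208 in Foxl2LsL 1 to 4. Control 1 and Foxl2LsL 2 almost met, although the groups did not overlap (two-sided exact permutation p 0.0571, the smallest that 35 splits allow, and 0.171 adjusted over the 3 ratios). The log2 difference of this ratio was 1.25, and 0.78 without control 4. The ratio of Osmr to Il6st was 0.0669 ± 0.0400 (n = 3) and 0.118 ± 0.0395 (n = 4) with overlapping groups (exact permutation p 0.171, 0.257 adjusted). Lifr to Osmr was 1.40 ± 0.205 and 1.77 ± 0.364, a log2 difference of 0.33 with overlapping groups (exact permutation p 0.286, 0.286 adjusted). With these group sizes the exact test cannot pass 0.05 for a difference of any size.

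**Figure D3:**
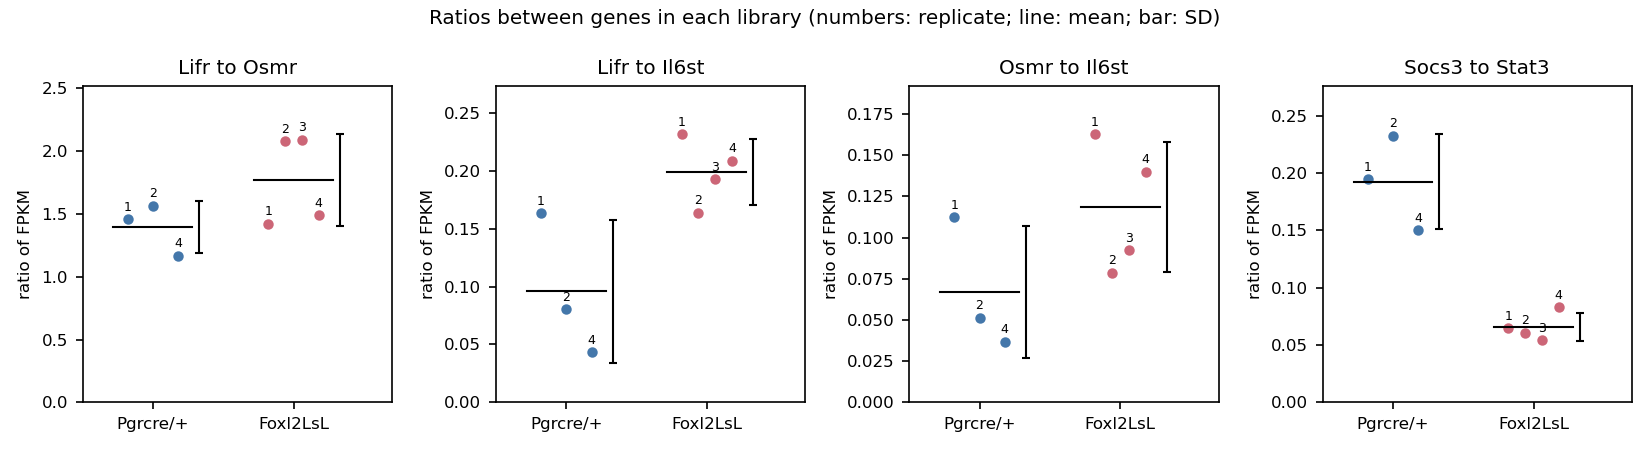
Ratios of FPKM in each library for Lifr to Osmr, Lifr to Il6st, Osmr to Il6st and Socs3 to Stat3; points carry replicate numbers, lines are means and bars are SD of 3 controls and 4 Foxl2LsL libraries. The Lifr to Il6st ratio is higher and the Socs3 to Stat3 ratio lower in every Foxl2LsL library than in any control, and the other 2 ratios overlap.

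Downstream of the receptors, Stat3 and Socs3 moved in opposite directions. Stat3 was at 36.4, 28.2 and 35.8 FPKM in controls and at 61.8, 56.3, 64.7 and 64.5 FPKM in Foxl2LsL 1 to 4, with no overlap and little spread in either group. Stat3 had a log2 fold change of 0.87 (SE 0.10; limma adjusted p 0.000975), a ratio of mean levels of 1.85. Socs3 was at 7.09, 6.56 and 5.38 FPKM in controls and at 3.99, 3.43, 3.51 and 5.35 FPKM in Foxl2LsL libraries, so control 4 and Foxl2LsL 4 nearly met. The log2 fold change was -0.54 (SE 0.15; limma adjusted p 0.0219). This call rests on few libraries: without control 1, control 2, Foxl2LsL 2 or Foxl2LsL 3 the adjusted p of Socs3 was 0.0652, 0.0715, 0.0515 and 0.0602 (limma), with log2 fold changes of -0.47 to -0.52.

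The ratio of Socs3 to Stat3, chosen after its values were seen and not tested, was 0.195, 0.233 and 0.150 in controls and 0.0646, 0.0609, 0.0543 and 0.0829 in Foxl2LsL 1 to 4. The highest Foxl2LsL library thus lay well under the lowest control. These are levels of RNA, and phosphorylation of STAT3 was not measured here.

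Other genes of the pathway were described in 6 lists of 72 distinct genes, of which 62 were tested. Past the threshold 9 were higher and 17 lower, 41.9% of the tested genes beside 40.6% of all genes, and the median log2 fold change was -0.008. The count was 16 without Foxl2LsL 3. The 9 higher genes became 5 without control 2, Foxl2LsL 1 or Foxl2LsL 4, and 4 without Foxl2LsL 3. Among the other gp130 ligands, 0 of 2 tested genes passed by limma and 0 by limma-voom on fragments, 1 had an unadjusted p under 0.05, and 1 passed without control 4, while 5 of 7 lay below the filter. Clcf1, a ligand of the CNTF receptor, was the most abundant of them at 12.7 ± 5.24 FPKM (n = 3) and 13.6 ± 3.12 FPKM (n = 4), and exceeded Lif in each of the 7 libraries. Of the other receptor chains, 0 of 3 tested passed by limma, 1 by limma-voom and 1 at an unadjusted p under 0.05. Il6ra, which binds IL-6, was at 2.63 ± 0.431 and 2.19 ± 0.433 FPKM.

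**Figure D4:**
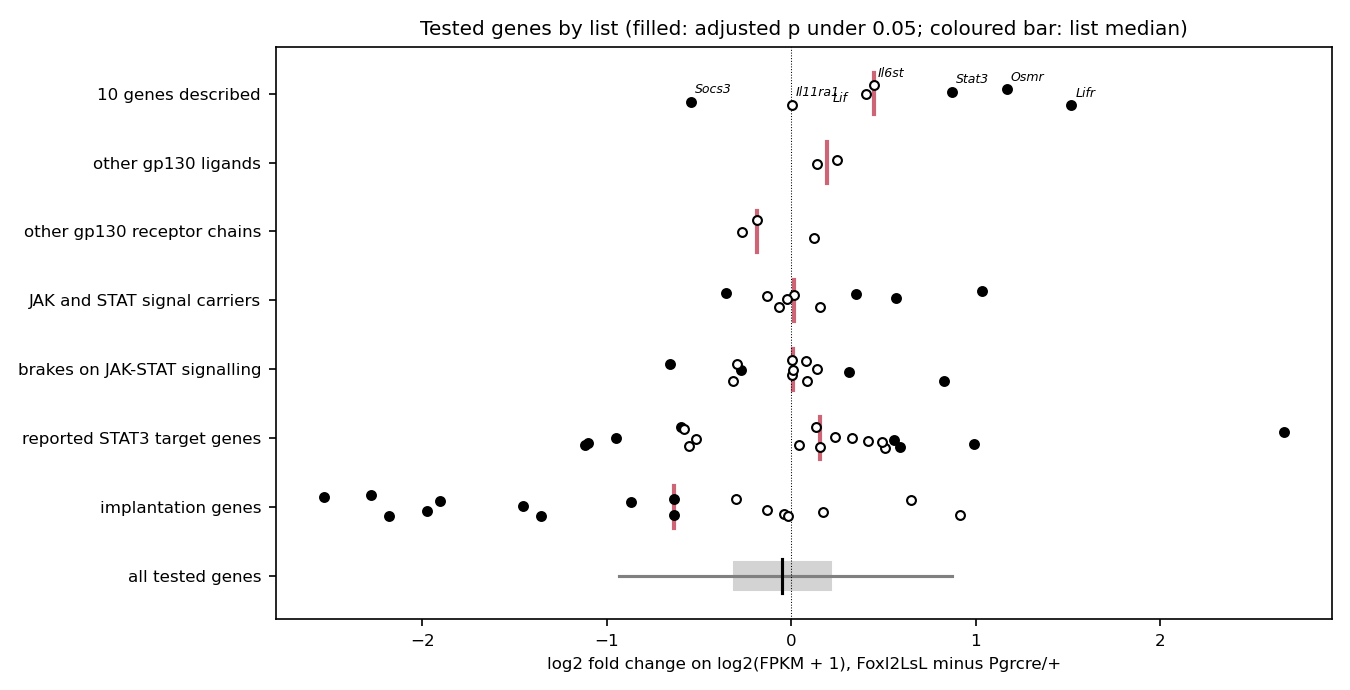
Log2 fold change of each tested gene (Foxl2LsL minus Pgrcre/+, on log2(FPKM + 1)) for the 10 genes described and the 6 pathway lists, with filled points for an adjusted p under 0.05 (limma) and a coloured bar at each list's median. The bottom row shows all 13334 tested genes with their median (-0.05), a box from the 25 to the 75 percentile and a line from the 5 to the 95 percentile; the implantation list is the one whose called genes all lie below 0.

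Among signal carriers, 3 of 9 were higher and 1 was lower, beside 16.7% higher and 23.9% lower among all tested genes. Stat5a and Stat5b, STATs best known for prolactin and growth hormone signalling, rose from 9.37 ± 2.18 to 20.1 ± 2.82 FPKM and from 8.01 ± 0.417 to 12.4 ± 0.572 FPKM (n = 3 and 4; log2 fold change 1.03 and 0.57, limma adjusted p 0.00262 and 0.00104). Gab1, a docking adaptor, rose by a log2 fold change of 0.35, and Ptpn11, the phosphatase SHP2 that links gp130 to the RAS pathway, fell by 0.35 on the log2 scale. Gab1 lost its call without control 1, control 2 or Foxl2LsL 2 (limma adjusted p 0.0515 to 0.0896). With the replicate block on libraries 1, 2 and 4, Ptpn11 and Gab1 were not called (limma adjusted p 0.0514 and 0.0924). Jak2 was the most abundant carrier on the list at 50.3 ± 5.10 and 56.4 ± 8.24 FPKM and was not called (limma adjusted p 0.349).

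Among the brakes on JAK-STAT signalling, 2 of 12 were higher and 2 lower. That is 33.3% called, beside 40.6% of all tested genes, so the count does not stand out. In all, 2 passed without control 4 or without Foxl2LsL 3. Socs1, a SOCS family inhibitor of Janus kinases, was at 4.67, 6.54 and 5.54 FPKM in controls and 3.68, 2.58, 2.83 and 3.63 FPKM in Foxl2LsL libraries, which did not overlap (log2 fold change -0.66, limma adjusted p 0.00837). Cish, a SOCS family gene induced by STAT5, went the other way, from 7.38 ± 1.505 FPKM (n = 3) to 13.8 ± 2.05 FPKM (n = 4; log2 fold change 0.83, limma adjusted p 0.00397). So Socs1 and Socs3 were lower while Cish, Stat5a and Stat5b were higher in the same libraries. Socs2, also on the list of brakes, was not called (log2 fold change 0.14, limma adjusted p 0.605). Socs1 lost its call with the replicate block on libraries 1, 2 and 4 (limma adjusted p 0.0719). Ptpn6, a phosphatase of blood cells and epithelium, rose by 0.31 and Ptpn1 fell by 0.27 on the log2 scale. Ptpn6 lost its call without control 1, control 4 or Foxl2LsL 3 (limma adjusted p 0.0502 to 0.0632), and after rescaling to a common sum (0.0512). Ptpn1 lost its call without control 4 or Foxl2LsL 3 (limma adjusted p 0.0519 and 0.0543), and after median centring (0.0502). Pias3, an inhibitor of STAT3, had the highest level of the list at 17.5 ± 0.424 and 18.6 ± 0.819 FPKM and was not called (limma adjusted p 0.315).

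Genes reported as STAT3 targets went both ways, with 4 of 19 higher and 4 lower and a median log2 fold change of 0.16. That is 42.1% called, beside 40.6% of all tested genes, so the count does not stand out. The 8 called genes became 4 without control 2 or Foxl2LsL 4, and 3 without Foxl2LsL 1 or Foxl2LsL 3. Lcn2, an iron-binding defence protein, was at 47.9, 36.3 and 6.74 FPKM in controls and at 336, 52.8, 95.7 and 321 FPKM in Foxl2LsL 1 to 4 (log2 fold change 2.67, limma adjusted p 0.0372), and Lrg1, a secreted glycoprotein of the acute phase, at 2.20, 2.41 and 3.55 and at 7.81, 3.34, 7.03 and 8.23 FPKM (0.99, adjusted p 0.0226). Both were highest in Foxl2LsL 1 and 4, as Lif was. So were Padi1 and Padi2 of the estrogen response list, which also holds Lcn2, but Greb1 and Ccnd1 of that list were not. Lcn2 lost its call without control 2, control 4 or Foxl2LsL 1, 3 or 4 (limma adjusted p 0.0590 to 0.0870) and without the filter (0.0657). The groups of Lrg1 overlapped, and its call was lost without control 1, control 2 or Foxl2LsL 1, 3 or 4 (0.0556 to 0.0738). Vegfa, the vascular growth factor, fell from 64.2 ± 6.91 to 29.0 ± 3.40 FPKM (log2 fold change -1.12, limma adjusted p 0.000596). Lbp, which binds bacterial lipopolysaccharide, fell from 163 ± 26.2 to 75.2 ± 5.09 FPKM (-1.10). Timp1, a metalloproteinase inhibitor, fell by 0.95 on the log2 scale, with a limma adjusted p of 0.0573 without Foxl2LsL 3.

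Genes of implantation were lower where they changed: 10 of 17 tested were lower and 0 higher, with a median log2 fold change of -0.63, beside 23.9% lower and a median of -0.05 among all tested genes. The list was chosen with earlier results of these data known, so this count is a description only. Ihh, a progesterone-induced signal of the epithelium, fell from 23.4 ± 4.94 to 3.20 ± 0.637 FPKM (n = 3 and 4; log2 fold change -2.53, limma adjusted p 0.000131), and Hand2, a progesterone-induced transcription factor of the stroma, from 27.1 ± 7.84 to 5.08 ± 0.681 FPKM. Hoxa11 and Calb1 fell by 1.90 and 1.97 on the log2 scale. Acod1, an itaconate-producing enzyme gene of the receptive epithelium, was at 1.74, 1.68 and 16.6 FPKM in controls. In Foxl2LsL libraries it was at most 0.0650 FPKM (log2 fold change -2.28, limma adjusted p 0.0211). The limma adjusted p of Acod1 was 0.0520 without Foxl2LsL 3 and 0.0615 with the replicate block on libraries 1, 2 and 4. Esr1, encoding estrogen receptor alpha, was higher at 58.2 ± 2.29 than at 39.8 ± 6.91 FPKM (log2 fold change 0.55, limma adjusted p 0.00662). Pgr was at 33.5 ± 7.56 and 25.4 ± 1.14 FPKM (limma adjusted p 0.0845) and passed without control 4 (log2 fold change -0.55, limma adjusted p 0.00168).

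Markers of other tissues and of cell division were also compared, beside 16.7% higher and 23.9% lower among all tested genes. Their lists were chosen with earlier results of these data known, so the counts are descriptions only. Cell cycle genes were lower in 8 of 8 cases, with Top2a and Ccnb1 at log2 fold changes of -2.63 and -2.52, and sums of 153 to 311 and 47.2 to 77.5 FPKM. Of 5 endothelial genes, 4 were lower and 1 higher, led by Cdh5 (-1.17) and Cldn5 (0.82), with sums of 104 to 137 and 83.8 to 98.4 FPKM. Adipocyte markers differed between libraries rather than groups, at 0.460, 9.64 and 102 FPKM in controls and 2.82, 135, 269 and 18.9 FPKM in Foxl2LsL 1 to 4, and 0 of 5 tested were called by limma, by limma-voom or at an unadjusted p under 0.05. Foxl2LsL 2 and 3 were the ones with the larger adipocyte sums. Of the tested genes described here, Lif, Osmr and Socs3 were lower there than in Foxl2LsL 1 and 4. Il6st was higher there (97.8 and 93.3 against 67.7 and 83.8 FPKM), and Lifr, Stat3 and Il11ra1 followed neither order. The part of fat tissue in these values was not tested. Ovary and oviduct markers summed to 9.44, 302 and 27.2 FPKM in controls and 15.0 to 25.7 FPKM in Foxl2LsL libraries. Of these, 1 of 3 tested was lower: Foxj1, of ciliated cells, at 2.44 ± 1.20 and 0.995 ± 0.315 FPKM (n = 3 and 4). Its call was lost without control 1 or 2 or Foxl2LsL 1, 3 or 4 (limma adjusted p 0.0614 to 0.0969) and without the filter (0.0592).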

How the data were processed

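RNA sequencing of whole uterus gave 7 libraries. Per the submitters' processing notes, STAR 2.5.2b, featureCounts 1.5.0-p1 from Subread and DESeq2 1.12.4 were used with build mm10. Their roles, the annotation and the use of strand are not given in the sources used here. The authors deposited FPKM values for 24964 gene symbols with each gene's length, without pooling. FPKM times length fell on whole multiples of 1 step per library (100% of 1646 to 1819 low values no more than 0.1 from a whole number, beside 20% for values placed at random), which gave the denominators and the fragments per gene. Fragment counts carry counting error only, since PCR copies are not independent molecules. Same-group libraries differed by 21.4 to 203 in chi-square per gene, so none was a copy.

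FPKM was taken as log2(FPKM + 1). Genes with a mean of at least 1 FPKM (13334) entered limma 3.58.1 (R 4.3.3, with intensity trend), with Benjamini-Hochberg adjustment over all of them and a threshold of 0.05. On simulated data for this comparison, 172 of 200 genes changed by 1.5 (log2) were recovered and 6 unchanged genes were called, among 13251 tested. The changed genes were drawn only above a level that Lif did not reach, with noise independent between genes. Far fewer genes changed there than the 5409 called here. These counts therefore do not give the power for Lif or for smaller changes such as those of Osmr, Stat3 and Socs3. Exact permutation tests were two-sided over 35 splits. Coordinates and promoters came from RefSeq (GRCm38.p6, the same primary assembly as mm10).

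The 10 genes, the 6 pathway lists and the 10 marker lists (uterine gland, estrogen response, leukocyte, simple epithelium, stroma, smooth muscle, endothelium, adipocyte, ovary and oviduct, cell cycle) were chosen with earlier results of these data known. Named were the 10 genes, Foxl2, Pgr, Esr1 and Foxa2. Named too were up to 5 called genes with the largest change and the most abundant gene of each pathway list. Up to 2 called genes of each marker list, the 5 genes most like Lif, and chromosomal neighbours were also named. Other genes named from these lists, such as Prss28, Prss29 and further leukocyte markers, were added after their values were seen. They are outside the counts of named genes given below. The alternatives were 17 settings covering scaling, filters, pseudocount, limma-voom on the fragments, leaving out each library, and a replicate block.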

Additional observations from a re-analysis of the deposited data

Results flagged for a closer look

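In the 4 Foxl2LsL libraries, 61 named genes were checked for a library far from the other 3 (Dixon's test at 95%), and 2 were found, where chance would give about 1 in 20. Gab1 was at 11.1 FPKM in Foxl2LsL 2 against 9.54 to 9.69 FPKM in the others. Vegfa was at 23.9 FPKM in Foxl2LsL 1 against 30.6 to 31.0 FPKM in the others, and every Foxl2LsL library lay below every control.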

How the results depend on the processing

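Lifr, Osmr and Stat3 kept their direction and call under all 17 alternatives, with log2 fold changes of 1.21 to 1.76, 0.97 to 1.39 and 0.76 to 0.94. When single libraries were left out, Lif ranged from 0.29 to 0.58, Il6st from 0.25 to 0.56, Socs3 from -0.66 to -0.47, Il11ra1 from -0.14 to 0.20, Foxl2 from -0.10 to 0.28 and Clcf1 from -0.13 to 0.43 on the log2 scale, so the directions of the last 3 are not settled. Over those fits the count of all called genes was 3840 to 5318 (5409 with all libraries), and that of called pathway genes 16 to 25 (26 with all). Il11ra1 was at -0.016 after rescaling to a common sum. The replicate block on libraries 1, 2 and 4 gave 3240 genes in all, 14 pathway genes, Il6st at 0.40 (limma adjusted p 0.0419, called) and Socs3 at -0.49 (0.115, not called). The same libraries with no replicate block gave 16 pathway genes and Socs3 at -0.49 (0.0602). Libraries sharing replicate number 1, 2 or 4 had correlated deviations of 0.228, -0.0306 and -0.112. With only 3 such values from groups this small, whether the numbers pair the libraries cannot be decided. Spearman's rho with Lif was 1 for Plekha2, 0.964 for Syt8 and for G6pc3, 0.893 for Fuca1 and 0.821 for Slc5a1. For each of these values the cause was not tested. Limma-voom on the fragments called 5381 genes. Of 38 other named genes past the threshold, 14 lost it under at least 1 alternative and 0 reversed. With 3 and 4 libraries the exact test cannot go below 0.0571, and at 0 to 36 fragments Il6 cannot be compared.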
